A study of Mus musculus with 6 samples.

Results

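The phagocyte NADPH oxidase and inducible nitric oxide synthase were followed through 7 genes, Cybb, Cyba, Ncf1, Ncf4, Rac2, Nos2 and Arg2, in the livers of mice that had undergone hepatic ischemia and reperfusion (I/R). The members were picked by gene name and account for 7 of the 15454 rows of the count table. All 7 were also present in the table of FPKM, in which fragments are divided by transcript length and by sequencing depth, and which holds 21948 rows, and 7 of 7 were among the 12411 genes tested. RNA was sequenced from whole liver of male C57BL/6 mice aged 8 to 10 weeks, with 1 liver per library. Both groups carried the same warm I/R of 75% of the liver, so that no uninjured liver enters any comparison here. The I/R group of 3 mice was given vehicle, and the I/R+Rk2 group of 3 mice was given ginsenoside Rk2, a saponin obtained from ginseng, dissolved in that vehicle, 2 days ahead of surgery and again as blood flow returned. The comparison of I/R+Rk2 with I/R addresses whether the compound changes liver gene expression after the injury. Total counts ran from 16809613 to 35618074 per library.

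The phagocyte NADPH oxidase transfers electrons from NADPH to oxygen and so makes superoxide, which neutrophils, monocytes and macrophages release into phagosomes or to the outside. Its catalytic subunit gp91phox (Cybb) and the stabilising partner p22phox (Cyba) form a heterodimer in the membrane, whereas the organiser p47phox (Ncf1), p40phox (Ncf4) and the GTPase Rac2 are among the proteins that wait in the cytosol and join it when the cell is activated. Inducible nitric oxide synthase (Nos2) makes nitric oxide from arginine, and arginase 2 (Arg2), a mitochondrial enzyme, splits arginine into ornithine and urea. Reperfused liver is a setting in which resident Kupffer cells and incoming neutrophils and monocytes are known sources of superoxide.

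Every member was lower in I/R+Rk2 than in I/R livers, and the 2 groups did not overlap for any of them. In edgeR's quasi-likelihood test with Benjamini-Hochberg adjustment over all genes tested, 7 of 7 members passed the threshold (adjusted p under 0.05 with more than a 2-fold change), all in the lower direction. Over all 12411 genes, 11.4% passed it in that direction and 3.17% in the other, and 30.3% had all 3 I/R+Rk2 livers below all 3 I/R livers. The members had been proposed with earlier results of these livers known, and Nos2, Ncf4 and Arg2 passed the filter on low counts through the I/R livers alone, so that the count of 7 describes the members and is no independent support. The p-values set the group difference against the spread between 3 livers per group, which edgeR moderates with the spread of all genes. Negative log2 fold changes mean a lower level with Rk2, and their median over all genes was -0.01.

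**Figure D1:**
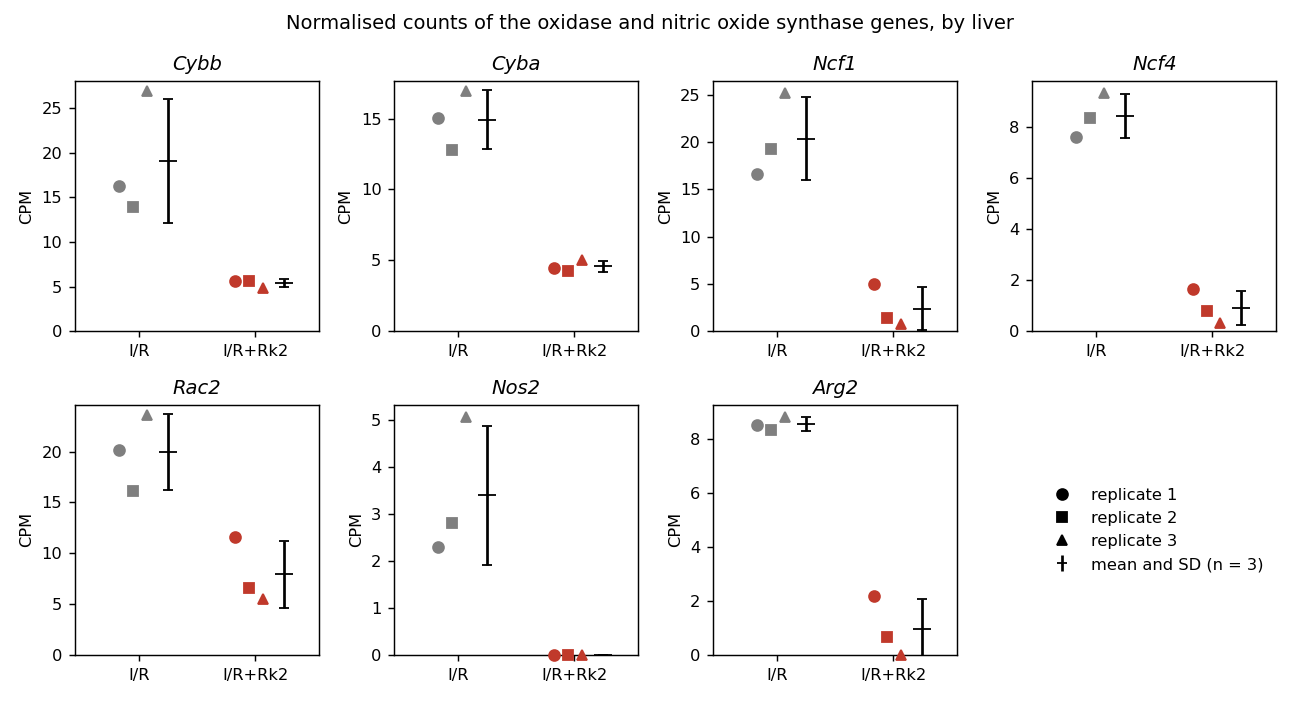
Normalised counts (counts per 1000000 of the scaled library, CPM, linear axis) of the 7 members in each liver, grey for I/R and red for I/R+Rk2, with a symbol per replicate number and bars for the mean and standard deviation of 3 livers. In each panel all 3 red points lie below all 3 grey points, and Nos2 is at 0 in all 3 I/R+Rk2 livers.

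The membrane subunits fell 3.54-fold (Cybb) and 3.28-fold (Cyba). Cybb, on the X chromosome (GRCm38, chrX:9435252-9487771, minus strand), stood at 16.3, 14.0 and 26.9 CPM in I/R replicates 1 to 3 and at 5.63, 5.63 and 4.85 CPM in I/R+Rk2 replicates 1 to 3. The I/R livers were spread, with replicate 3 well above the others, while the I/R+Rk2 livers lay within 1.16-fold of each other. The mean fell from 19.1 ± 6.93 to 5.37 ± 0.449 CPM (SD, n = 3 each), a log2 fold change of -1.82 (SE 0.26, edgeR adjusted p = 0.00198). Cyba (chr8:122424776-122432930, minus strand) stood at 15.1, 12.8 and 16.9 CPM in I/R livers and at 4.46, 4.23 and 5.04 CPM in I/R+Rk2 livers. These groups were narrow on both sides, and the lowest I/R liver was 2.54 times the highest I/R+Rk2 liver. Its mean went from 14.9 ± 2.07 to 4.57 ± 0.414 CPM (SD, n = 3 each), a log2 fold change of -1.71 (SE 0.15, edgeR adjusted p = 0.000458). The log2 ratio of Cybb to Cyba, in CPM with 0.5 added, was 0.29 ± 0.31 in I/R and 0.21 ± 0.23 in I/R+Rk2 livers (SD, n = 3 each). The difference of -0.08 was smaller than the spread between livers (two-sided exact permutation test, p = 0.8, adjusted p = 0.873 over 12 ratios), and 3 livers against 3 cannot give a p below 0.1.

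The 3 members with an entry in the RefSeq promoter table (GRCm38.p6) are the membrane pair and Ncf1, and for that reason the 250 bases upstream of the start of each are printed 5′ to 3′. Letter patterns of PU.1 (GAGGAA), the interferon-stimulated response element (GAAA, any 2 bases, GAAA), NF-kB (GGGA, any 3 bases, TCC), C/EBP (TTGCNNAA), AP-1 (TGANTCA), GAS (TTCNNNGAA) and the TATA box (TATAAA) were searched on both strands, and matches are in capitals. The Cybb window (chrX:9469325-9469574, minus strand) precedes the RefSeq start, which lies inside the longer GENCODE gene given above, and the Cyba window is chr8:122432941-122433190 and the Ncf1 window chr5:134229626-134229875, both on the minus strand.
Cybb: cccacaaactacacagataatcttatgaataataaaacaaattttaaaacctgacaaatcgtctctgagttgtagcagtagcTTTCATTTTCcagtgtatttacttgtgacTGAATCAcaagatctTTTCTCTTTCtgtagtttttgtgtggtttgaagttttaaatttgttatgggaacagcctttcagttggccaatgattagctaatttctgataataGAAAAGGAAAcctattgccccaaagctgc
Cyba: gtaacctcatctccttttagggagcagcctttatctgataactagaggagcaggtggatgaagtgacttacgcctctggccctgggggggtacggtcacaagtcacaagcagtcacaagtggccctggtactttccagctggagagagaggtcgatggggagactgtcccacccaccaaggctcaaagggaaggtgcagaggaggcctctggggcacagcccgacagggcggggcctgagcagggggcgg
Ncf1: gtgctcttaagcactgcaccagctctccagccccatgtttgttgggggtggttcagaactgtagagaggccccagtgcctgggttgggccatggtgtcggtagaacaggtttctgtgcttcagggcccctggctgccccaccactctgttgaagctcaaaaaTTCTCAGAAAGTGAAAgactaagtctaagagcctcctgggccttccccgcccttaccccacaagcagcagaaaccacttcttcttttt

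The Cybb window held the interferon-stimulated response element pattern 3 times, at 168 to 159 and 124 to 115 bases upstream on the minus strand of the window and at 29 to 20 bases upstream on its plus strand, and the AP-1 pattern at 139 to 133 bases upstream. The Ncf1 window held that response element pattern at 82 to 73 bases upstream, overlapping a GAS pattern at 88 to 80 bases upstream. The Cyba window held none of the 7 patterns. Of the 32851 windows of the same length in the table, 2.98% held the response element pattern, 7.02% the GAS pattern and 6.75% the AP-1 pattern. None of the printed windows held the letters of PU.1, NF-kB, C/EBP or the TATA box. PU.1's letters were in 23.3% of windows, those of NF-kB in 3.86%, those of C/EBP in 9.56% and the TATA box in 12.4%. The windows also differed in base composition, with a GC content of 34.0% for Cybb, 60.0% for Cyba and 54.4% for Ncf1 against a median of 52.4% over the table. A match of letters is a description of these windows and not a site of binding.

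Among the cytosolic members the organiser and p40phox fell furthest. Ncf1 (chr5:134220053-134229625, minus strand) stood at 16.6, 19.3 and 25.2 CPM in I/R livers and at 4.96, 1.42 and 0.798 CPM in I/R+Rk2 livers. The treated livers were spread 6.21-fold, with replicate 1 highest and replicate 3, at 13 counts, lowest. The mean fell from 20.4 ± 4.41 to 2.39 ± 2.24 CPM (SD, n = 3 each), a log2 fold change of -3.07 (SE 0.56, edgeR adjusted p = 0.00507). Without I/R+Rk2 replicate 1 it was -4.12. An exon of Ncf1 overlaps Gtf2ird2 on the opposite strand, and since the strand setting of the counting is not given, reads of the overlap cannot be assigned. Gtf2ird2 itself was at 3.99 ± 0.313 CPM in I/R livers and 3.12 ± 0.291 CPM in I/R+Rk2 livers (SD, n = 3 each, edgeR adjusted p = 0.135).

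Ncf4 (chr15:78244801-78262580, plus strand), whose product p40phox binds phosphoinositides on the phagosome, stood at 7.61, 8.35 and 9.33 CPM in I/R livers and at 1.64, 0.799 and 0.307 CPM in I/R+Rk2 livers. The I/R livers were tight, and among the treated livers replicate 1 was highest and replicate 3 lowest, as for Ncf1. Ncf4's lowest value rests on 5 counts, for which the exact 95% Poisson interval runs from 1.62 to 11.7 counts. The mean fell from 8.43 ± 0.861 to 0.915 ± 0.674 CPM (SD, n = 3 each), a log2 fold change of -3.15 (SE 0.43, edgeR adjusted p = 0.0018), and was -3.79 without I/R+Rk2 replicate 1.

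Rac2, the GTPase of blood cells that switches the assembled enzyme on, had the smallest fold change of the members. Rac2 (chr15:78559167-78572783, minus strand) stood at 20.1, 16.2 and 23.6 CPM in I/R livers and at 11.6, 6.57 and 5.53 CPM in I/R+Rk2 livers. The groups were apart by little, since the lowest I/R liver was 1.39 times the highest treated liver, again replicate 1. The mean fell from 19.9 ± 3.71 to 7.91 ± 3.27 CPM (SD, n = 3 each), a log2 fold change of -1.33 (SE 0.29, edgeR adjusted p = 0.00966). The widely expressed paralogue Rac1 stood at 155 ± 5.45 CPM in I/R livers and 129 ± 6.27 CPM in I/R+Rk2 livers (SD, n = 3 each), a log2 fold change of -0.27 (SE 0.08, edgeR adjusted p = 0.0281) that did not pass the fold limit. The log2 ratio of Rac2 to Rac1 changed by -1.06, with the groups apart (two-sided exact permutation test, p = 0.1, the smallest possible, adjusted p = 0.2).

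The levels of the members can be compared per length, in FPKM. In I/R livers Cyba led at 20.6 ± 2.82 FPKM, and all of its livers lay above those of every other gene of the group. It was followed by Ncf1 at 8.60 ± 1.34, Ncf4 at 7.74 ± 0.465, Rac2 at 6.52 ± 1.24, Arg2 at 5.93 ± 0.397 and Cybb at 4.27 ± 1.26 FPKM, each overlapping its neighbour in the order, and Nos2 was last and apart at 0.786 ± 0.310 FPKM (SD, n = 3 each). In I/R+Rk2 livers Cyba again led, at 5.53 ± 0.447 FPKM, and Rac2 came next at 2.32 ± 1.04 FPKM. Ncf1 at 1.23 ± 1.05, Cybb at 1.04 ± 0.145, Ncf4 at 0.650 ± 0.581 and Arg2 at 0.602 ± 0.722 FPKM followed with overlapping neighbours (SD, n = 3 each), and Nos2 was listed at 0.

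As a share of the summed FPKM of the 5 oxidase members, Cyba took 42.1% to 45.0% in I/R livers. In I/R+Rk2 replicates 1 to 3 it took 41.3%, 53.3% and 65.4%, so that replicate 1 lay just below the range of the I/R livers and the other two above it. Ncf4 took 15.1% to 17.6% in I/R livers and 9.19%, 4.97% and 2.06% in I/R+Rk2 livers, all lower. The share of Ncf1 was 15.7% to 19.8% in I/R livers, and among treated livers it was 17.1% in replicate 1, 9.12% in replicate 2 and 4.73% in replicate 3. The share of Rac2 was 12.4% to 14.7% in I/R livers and 17.8% to 24.8% in treated livers, all higher. Cybb took 7.79% to 10.5% of the sum in I/R livers and 7.64% to 12.3% in treated livers, which overlapped. No test was run on these shares, which sum to a fixed total.

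**Figure D2:**
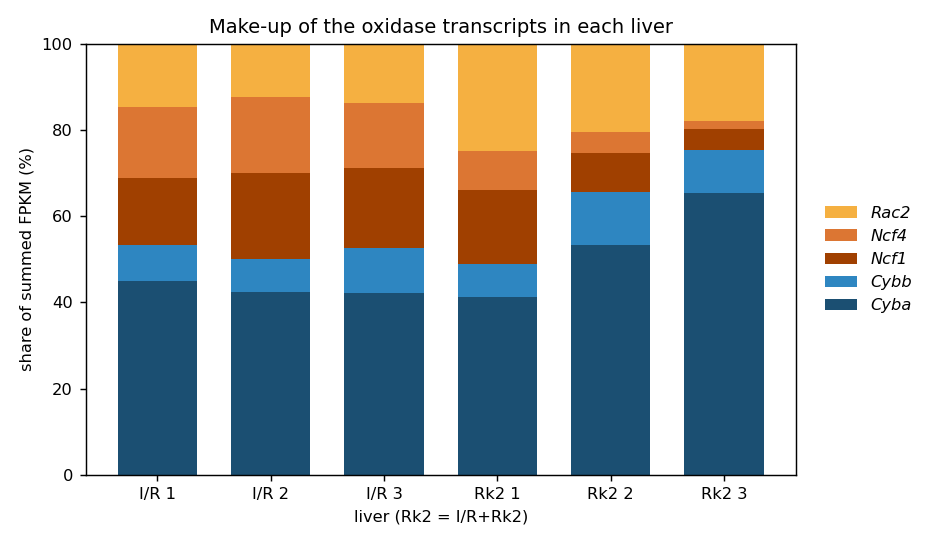
Share of the summed FPKM of the 5 phagocyte oxidase members (percent, stacked to a fixed total) in each of the 6 livers. Cyba takes 42.1% to 45.0% of the 3 I/R bars and 41.3% of the bar of I/R+Rk2 replicate 1, which has a wider Rac2 share of 24.8% and a narrower Ncf4 share of 9.19%, and replicates 2 and 3 have a wider Cyba share and little Ncf1 and Ncf4.

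Nos2 (chr11:78920787-78960254, plus strand) was detected in every I/R liver and in no treated liver. It had 44, 72 and 127 counts in I/R replicates 1 to 3, which are 2.29, 2.81 and 5.06 CPM, and 0 counts in all 3 I/R+Rk2 livers. A floor of 3 counts was taken for a count of 0, a one-sided limit that stands for 0.0888 to 0.184 CPM at these depths, whereas the two-sided exact 95% Poisson interval of a count of 0 ends at 3.69 counts. Against the mean of the 3 treated libraries' floors, the I/R mean of 3.39 ± 1.47 CPM (SD, n = 3) was at least 25.5-fold higher, with an edgeR adjusted p of 0.00144. Such limits cover counting error only. Nos3, the endothelial synthase, fell from 12.6 ± 1.44 to 3.07 ± 1.12 CPM (SD, n = 3 each), a log2 fold change of -2.01 (SE 0.26, edgeR adjusted p = 0.00153). Its exons overlap Atg9b on the opposite strand, which stood at 0.994 ± 0.494 CPM in I/R livers and 0.173 ± 0.150 CPM in treated livers (SD, n = 3 each). The log2 ratio of Nos2 to Nos3 went from -1.82 ± 0.55 to -2.78 ± 0.51 (SD, n = 3 each, exact permutation p = 0.1, the smallest possible), a value set in treated livers by the 0.5 CPM added to the Nos2 level of 0. The neuronal synthase Nos1 had too few counts to be tested.

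Arg2 (chr12:79130777-79156301, plus strand) was almost constant among I/R livers, at 8.50, 8.31 and 8.81 CPM, and stood at 2.19, 0.651 and 0 CPM in I/R+Rk2 livers. Treated replicate 1 was highest and replicate 3, with 0 counts, lowest, a range of at least 11.9-fold against the floor of 3 counts. The mean fell from 8.54 ± 0.252 to 0.946 ± 1.12 CPM (SD, n = 3 each), a log2 fold change of -3.11 (SE 0.73, edgeR adjusted p = 0.0131). The call was lost with DESeq2 (adjusted p = 0.0542) and in edgeR without I/R+Rk2 replicate 2 (log2 fold change -2.83, adjusted p = 0.0503), and the value was -4.38 when I/R+Rk2 replicate 1 was left out. Exons of Arg2 overlap those of Vti1b on the opposite strand, which stood at 29.1 ± 4.10 CPM in I/R livers and 29.1 ± 5.52 CPM in I/R+Rk2 livers (SD, n = 3 each, edgeR adjusted p = 0.998).

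Arg1, the abundant arginase of the hepatocyte urea cycle, was not lower in treated livers. It stood at 995, 1131 and 1091 CPM in I/R livers and at 1288, 1733 and 1362 CPM in I/R+Rk2 livers, a log2 fold change of 0.45 (SE 0.14, edgeR adjusted p = 0.033) that did not reach the fold limit. The log2 ratio of Arg2 to Arg1, in CPM with 0.5 added, went from -6.89 ± 0.11 to -10.29 ± 1.27 (SD, n = 3 each), a difference of -3.40 with the groups apart (two-sided exact permutation test, p = 0.1, the smallest possible, adjusted p = 0.2). Nos2 relative to Arg2 gave -1.28 ± 0.49 and -1.21 ± 1.21 (SD, n = 3 each, exact permutation p = 0.9), and since Nos2 was at 0 in the treated livers, that ratio is set there by the 0.5 CPM added.

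Of the other genes of nitric oxide and arginine metabolism, 24 were tested among 25 listed. Of these 3 passed the threshold lower and 1 higher, shares near the 11.4% and 3.17% of all genes, and the median log2 fold change was -0.11. By adjusted p alone, without the fold limit, 4 were lower and 7 higher, beside 23.7% and 20.3% of all genes. Besides Nos3, the lower ones were Odc1, which starts polyamine synthesis from ornithine, at 117 ± 13.1 against 58.1 ± 12.0 CPM (SD, n = 3 each, log2 fold change -1.01, edgeR adjusted p = 0.00334), and the arginine transporter Slc7a1, at 16.9 ± 5.05 against 6.05 ± 3.17 CPM (SD, n = 3 each, log2 fold change -1.47, edgeR adjusted p = 0.0191). The Odc1 value came to -0.93 when I/R replicate 3 was left out and to -0.86 for I/R+Rk2 replicate 2, under the fold limit, and the Slc7a1 call was lost when I/R replicate 2, I/R replicate 3 or I/R+Rk2 replicate 2 was left out (adjusted p = 0.055, 0.0633 and 0.0705). The one that rose was Qdpr, which regenerates the synthase cofactor tetrahydrobiopterin, from 139 ± 22.0 to 349 ± 139 CPM (SD, n = 3 each), 1.33 on the log2 scale (edgeR adjusted p = 0.0111). Ass1, which rebuilds arginine from citrulline, stood at 2114 ± 352 CPM in I/R livers and 3620 ± 811 CPM in I/R+Rk2 livers (SD, n = 3 each, log2 fold change 0.78, edgeR adjusted p = 0.0185), under the fold limit.

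Among NOX homologues, Nox4, the constitutively active homologue found in hepatocytes and fibroblasts, stood at 13.4 ± 2.40 CPM in I/R livers and 20.8 ± 3.52 CPM in I/R+Rk2 livers (SD, n = 3 each), a log2 fold change of 0.63 (SE 0.18, edgeR adjusted p = 0.0262) that did not pass the fold limit. Nox1, Nox3, Noxa1, Duox1 and Duoxa1 were listed at 0 FPKM in all 6 livers. Duox2 and Duoxa2 had 3 counts or fewer in every liver, and Rac3 and Noxo1 also had too few for the test.

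Genes that assemble or trigger the oxidase were lower nearly throughout. Of 23 tested among 24 listed, 19 passed the threshold lower and 0 higher, beside 11.4% and 3.17% of all genes. Their median log2 fold change was -1.88. Cybc1, needed to make the membrane pair, was not analysed here. Itgam, the alpha chain of complement receptor 3, fell from 33.8 ± 5.96 to 2.27 ± 0.849 CPM (SD, n = 3 each), a log2 fold change of -3.87 (SE 0.27, edgeR adjusted p = 0.00024). The Fc receptor Fcgr3 fell from 40.1 ± 5.42 to 7.92 ± 1.56 CPM (log2 fold change -2.34), the Src family kinase Fgr from 20.2 ± 3.0 to 2.66 ± 1.17 CPM (log2 fold change -2.93) and the complement receptor C5ar1 from 32.7 ± 5.77 to 4.44 ± 1.98 CPM (log2 fold change -2.87; SD, n = 3 each). Lyn, a Src family kinase also found outside myeloid cells, stood at 45.0 ± 1.46 and 25.4 ± 1.56 CPM (SD, n = 3 each) with a log2 fold change of -0.82 (SE 0.09, edgeR adjusted p = 0.000753), short of the fold limit. Dock2, which loads Rac with GTP, stood at 5.27 ± 2.11 and 2.64 ± 1.19 CPM (SD, n = 3 each) and did not pass, at a log2 fold change of -1.01 and an edgeR adjusted p of 0.0991.

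**Figure D3:**
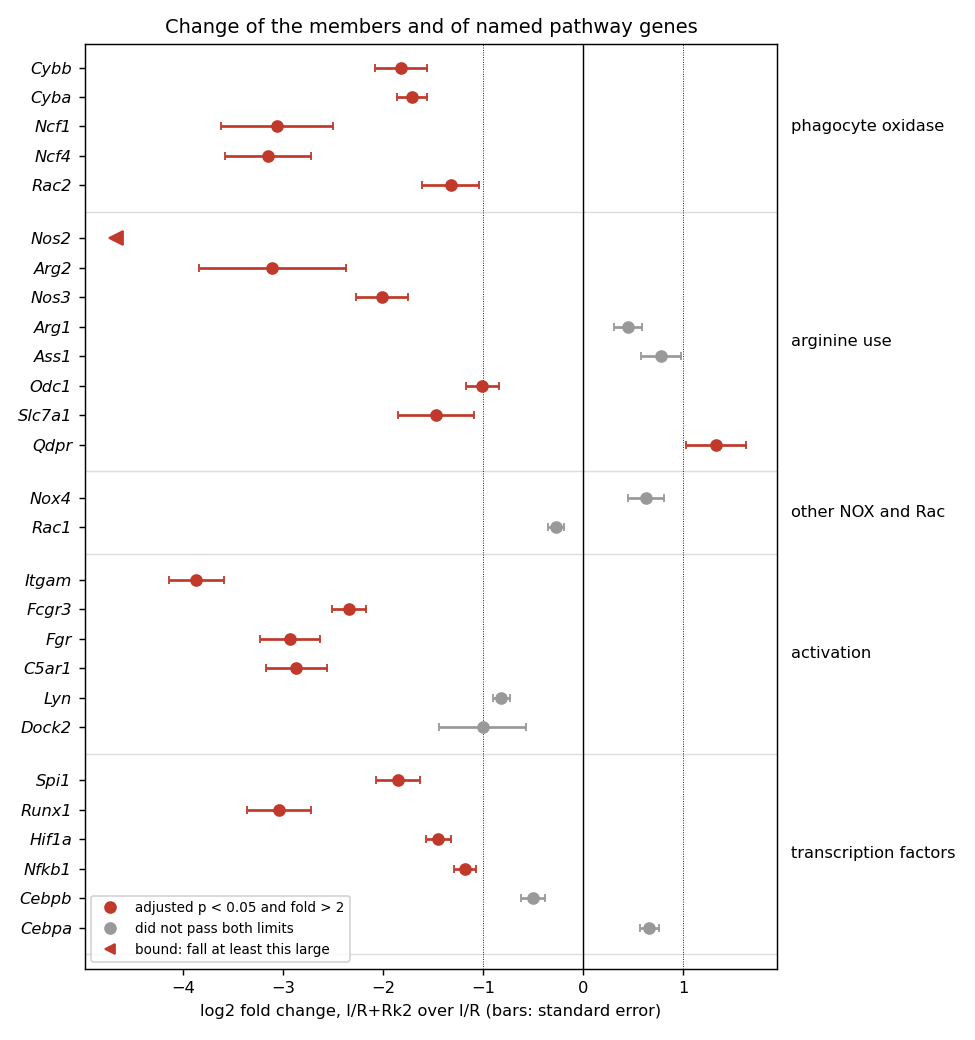
Log2 fold change (I/R+Rk2 over I/R, edgeR, 3 livers per group) of the members and of pathway genes named in the text, without the removal enzymes, Cebpe and Irf1. Bars are the standard error, dotted lines mark the fold limit of 2 and red marks genes past the threshold. The arrowhead for Nos2 is a lower bound on the size of its fall. The oxidase members lie between -1.33 for Rac2 and -3.15 for Ncf4, whereas Arg1, Ass1, Nox4, Qdpr and Cebpa lie to the right of 0.

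Enzymes that remove superoxide and hydrogen peroxide gave 2 of 14 lower and 0 higher past the threshold, beside 11.4% and 3.17% of all genes, and a median log2 fold change of 0.27. By adjusted p alone 2 of the 14 were lower and 7 higher, beside 23.7% and 20.3% of all genes. Txnrd1, thioredoxin reductase, fell from 448 ± 42.2 to 180 ± 15.3 CPM (SD, n = 3 each, log2 fold change -1.31, edgeR adjusted p = 0.000379). Gpx1, glutathione peroxidase, was called lower at -2.46 on the log2 scale (edgeR adjusted p = 0.035), but its I/R livers stood at 116, 1284 and 1344 CPM against 155, 164 and 179 CPM in treated livers, so that I/R replicate 1 lay below them all. The Gpx1 call was lost in 9 of the alternatives, 5 of which leave out a library other than I/R replicate 1 (adjusted p = 0.0839 to 0.0972). Catalase (Cat) stood at 2131 ± 282 CPM in I/R livers and 3653 ± 284 CPM in I/R+Rk2 livers (SD, n = 3 each, log2 fold change 0.78, edgeR adjusted p = 0.00415), and cytosolic superoxide dismutase (Sod1) at 565 ± 39.8 and 753 ± 26.5 CPM (SD, n = 3 each, log2 fold change 0.42, edgeR adjusted p = 0.0102), both under the fold limit.

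Among 11 transcription factors known to act on the oxidase genes or Nos2, 4 passed lower and 1 higher, beside 11.4% and 3.17% of all genes. Their median log2 fold change was -0.47. Spi1, which encodes PU.1, the myeloid factor of the Cybb and Ncf1 promoters, fell from 16.4 ± 2.45 to 4.50 ± 1.31 CPM (SD, n = 3 each, log2 fold change -1.86, edgeR adjusted p = 0.00113). Neither printed window of those genes held GAGGAA, the only PU.1 letters searched for. Other sequences that PU.1 may bind were not searched. Runx1 fell from 6.47 ± 0.986 to 0.751 ± 0.332 CPM (SD, n = 3 each, log2 fold change -3.04, edgeR adjusted p = 0.000767). Hif1a and Nfkb1, expressed in most cells, fell less, at log2 fold changes of -1.45 and -1.19 (edgeR adjusted p = 0.00042 and 0.000534). The one that rose was Cebpe, at 2.13 ± 0.217 against 4.50 ± 1.01 CPM (SD, n = 3 each, log2 fold change 1.08, edgeR adjusted p = 0.00804), which falls outside the rule for named genes and was named after its values were seen. Cebpb (log2 fold change -0.50) and Cebpa (0.66) did not pass the fold limit, and the interferon factor Irf1, also named after its values were seen, stood at 21.3 ± 1.3 and 21.1 ± 0.934 CPM (SD, n = 3 each, edgeR adjusted p = 0.926).

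Most markers of neutrophils and monocytes were lower in treated livers, as the members were. For the counts below, 11.4% of all genes tested passed the threshold lower and 3.17% higher. In these whole-liver libraries, fewer cells of a type and less RNA per cell cannot be told apart. Of 10 tested neutrophil markers among 14 listed, 8 passed lower, and their summed level was 517 to 632 CPM in I/R livers and 218, 118 and 93.8 CPM in I/R+Rk2 replicates 1 to 3, the same order of livers as for Ncf1, Ncf4, Rac2 and Arg2. The calprotectin subunit S100a8 stood at 161, 123 and 167 CPM in I/R livers and at 59.3, 28.9 and 22.2 CPM in I/R+Rk2 livers, and the defining neutrophil marker Ly6g at 1.04 to 1.51 and 0.246 to 0.588 CPM. The granule genes Camp and Mpo were listed at 0 FPKM in all 6 livers, and Elane had 3 counts or fewer throughout. Of 9 monocyte markers, 8 passed lower with a median log2 fold change of -4.36, in a range of -5.61 to -0.49. The sum of the 9 was 1603 to 1926 CPM in I/R livers and 1129 to 1184 CPM in I/R+Rk2 livers. Most of it is Fn1, so the sum follows that gene and is no measure of the other markers. The part of these cells in the members' fall was not tested.

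Markers of resident liver cells and lymphocytes were also counted. These lists are short, and of all genes tested 11.4% passed lower and 3.17% higher, so that 1 call in a list is no result about its cell type. Of 9 Kupffer cell markers, 1 passed lower (Cd163), with a summed level of 211 to 259 CPM in I/R livers and 179 to 272 CPM in treated livers, and Clec4f, which defines these cells, stood at 15.6 to 18.8 and 13.3 to 17.7 CPM. Of 7 hepatocyte markers, 1 passed higher (Ttr) and 0 lower. By adjusted p alone 2 were lower and 4 higher, beside 23.7% and 20.3% of all genes. Their log2 fold changes ran from -0.62 to 1.06. The sum of the 7 was 71005 to 81401 CPM in I/R livers and 101378 to 121994 CPM in I/R+Rk2 livers. It weights each marker by its level and is no measure of the single markers. Endothelial markers gave 1 lower of 7 (Cdh5), stellate cell markers 1 lower of 5 (Pdgfrb) and cholangiocyte markers 1 lower of 5 (Spp1). By adjusted p alone, 3 endothelial markers were lower and 3 higher, and their median log2 fold change was 0.30. The stellate cell and cholangiocyte lists each had 2 lower and 0 higher by that limit. Of the T and NK cell markers, Cd4 alone was tested and did not pass, and 0 of 3 B cell markers had enough counts to be tested.

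Relative to leukocyte transcripts in the same liver, the members gave different values. Ptprc, which encodes the common leukocyte antigen CD45, stood at 27.2, 17.1 and 32.6 CPM in I/R livers and at 4.46, 3.88 and 2.39 CPM in I/R+Rk2 livers, a log2 fold change of -2.82 (SE 0.30, edgeR adjusted p = 0.000834). The log2 ratio to Ptprc, in CPM with 0.5 added, was higher in treated livers by 1.34 for Rac2, 1.07 for Cyba and 0.99 for Cybb, with the groups apart for each (two-sided exact permutation tests, p = 0.1, the smallest possible, adjusted p = 0.2). For Ncf1, Ncf4, Arg2 and Nos2 it differed by -0.44, -0.10, -0.30 and -0.23 with overlapping groups (exact permutation p = 0.5, 0.6, 0.7 and 0.7, adjusted p = 0.84). The Nos2 ratio is set in treated livers by the 0.5 CPM added, against each of the references used here, and with 0.1 CPM added its difference to Ptprc was -2.24 (exact permutation p = 0.1, the smallest possible). Arg2, at 0 in 1 treated liver, gave -1.15 with 0.1 CPM added (exact permutation p = 0.5).

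These values depended on the leukocyte gene chosen. Against Itgb2, the beta chain of the leukocyte integrins, chosen after the data were seen, the difference was 0.19 for Cybb and 0.27 for Cyba with overlapping groups (exact permutation p = 0.6 each). It stayed above 0 for Rac2, at 0.54, and was -1.23 for Ncf1, -0.89 for Ncf4, -1.02 for Nos2 and -1.09 for Arg2, with the groups apart (exact permutation p = 0.1 each). Against the summed neutrophil markers, also chosen after the data were seen, Rac2 was higher by 0.79 and Ncf1, Ncf4 and Arg2 lower by a difference of -0.98, -0.64 and -0.84, again with the groups apart (exact permutation p = 0.1 each), while Cybb at 0.44, Cyba at 0.52 and Nos2 at -0.77 overlapped. For Rac2 the ratio was higher in all treated livers under each of these 3 references. Ncf1, Ncf4 and Arg2 overlapped against Ptprc and were lower in all treated livers against the other two.

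**Figure D4:**
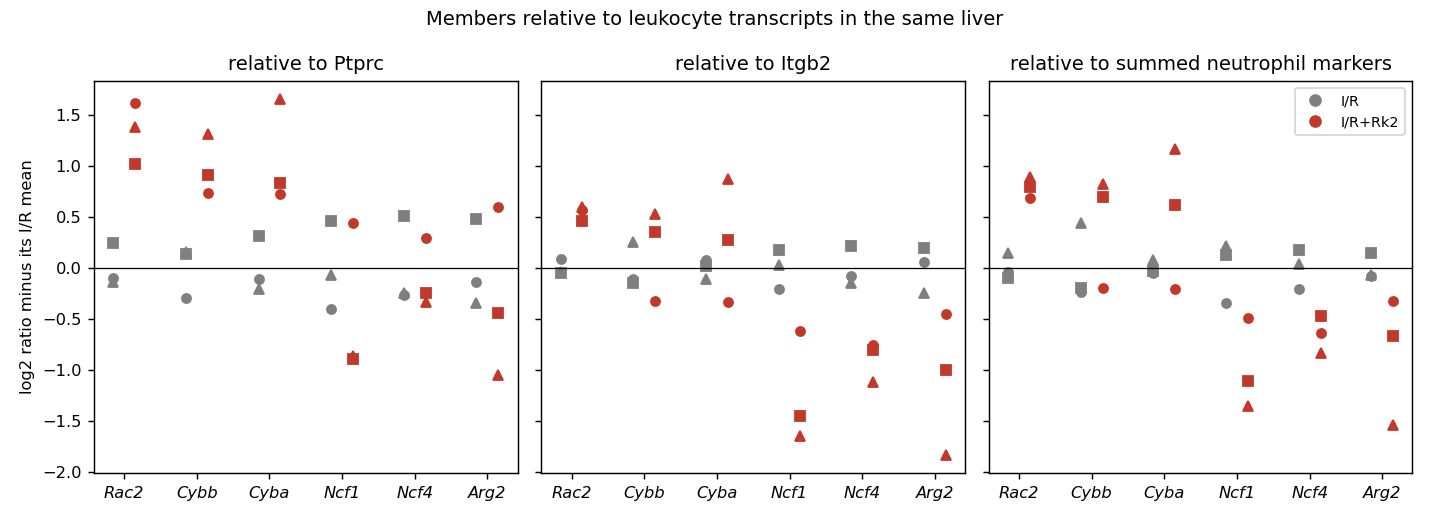
Log2 ratio of 6 members to Ptprc, to Itgb2 and to the summed neutrophil markers in the same liver (CPM with 0.5 added), minus the mean of the I/R livers, with a symbol per replicate number as in the plot of normalised counts; Nos2 is left out because its treated livers were at 0. Rac2 lies above the I/R livers in all 3 panels, whereas Cybb and Cyba do so relative to Ptprc and overlap in the other two.

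The same livers were often highest or lowest across members. I/R replicate 3 was the highest I/R liver for 7 of 7 members, though the I/R livers of Arg2 lay within 1.06-fold of each other. I/R replicates 1 and 2 changed order between members. Of the 6 members above 0 in treated livers, replicate 1 was highest for 5 (for Cybb level with replicate 2, both at 5.63 CPM) and replicate 3 lowest for 5. Cyba was the exception, with replicate 3 highest at 5.04 CPM and replicate 2 lowest at 4.23 CPM.

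The genes whose pattern over the 6 livers was most like that of each member were found by the root mean square difference of mean-centred log2(CPM + 1) values, among all genes tested. For Cyba they were Runx3 (0.0554), Csf1r (0.0789), the receptor of macrophage colony-stimulating factor, and Ahnak (0.0844). For Cybb they were less close, Ero1l (0.117), Gda (0.154) and Ubash3b (0.154). Ncf4 was nearest to Tnfrsf12a (0.0962), Mxd1 (0.108) and Slfn1 (0.11), and Rac2 was near Fermt3 (0.11) and Pstpip1 (0.119). Ncf1 was nearest to Acod1 (0.173), the itaconate-making enzyme of activated macrophages, Sema4d (0.201) and Lif (0.240). Arg2 was closest to the chemokine receptor Ccr1 (0.0839), then to Sema4d (0.113), which it shared with Ncf1, and to Cxcr2 (0.115), which is also among the neutrophil markers. Nos2 had Cd300a (0.176), Irak3 (0.178) and Trim30b (0.193). These are distances over 6 livers that share the group difference, given as a description. The 1 added to each CPM shrinks the differences of genes at low CPM, so genes listed as near can differ in fold change. Runx3 had a log2 fold change of -2.87 against -1.71 for Cyba. Nos2, at 0 in treated livers, was matched to genes whose means there were 0.684 to 1.29 CPM.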

How the data were processed

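Liver RNA of 6 mice was sequenced, 3 per group, and groups and replicate numbers were taken from the labels. Per the submitters' processing notes, reads were handled with FastQC 0.11.5, HISAT2 2.2.1 and StringTie 1.3.3 on mm10 (GRCm38). The annotation and strand setting are not given in the sources used here. The authors deposited whole-number counts per gene and, separately, FPKM. How whole-number counts were obtained from StringTie is not given either, so the lowest counts may be estimates rather than counted reads. A date stood in place of the gene name in 21 rows of the count table. Columns of per-sample values matched to no sample numbered 0.

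Differences between groups were tested on the counts with edgeR 4.0.16 under R 4.3.3 (filterByExpr, scaling by trimmed mean of M values, TMM, quasi-likelihood F test on all 6 libraries without covariates, Benjamini-Hochberg adjustment over 12411 genes). The threshold was an adjusted p under 0.05 with more than a 2-fold change. CPM are counts per 1000000 of the TMM-scaled library. Ratios were compared by exact permutation of livers, and the p-values of the 12 planned ratios were adjusted together. Ratios to Itgb2 and to the summed neutrophil markers were added later, and their p-values are unadjusted. Coordinates are those of GENCODE M21. Libraries of a group differed by far more than sampling noise (chi-square per degree of freedom 31.4 to 74.8), so none merely repeats another. Each was taken as 1 replicate from the labels, since this check cannot show that libraries come from separate mice. The code was tested on simulated data. The members and lists were chosen with earlier results of these data known. Genes named are the members, up to 4 called genes with the smallest p and up to 2 uncalled genes with the highest FPKM of each list, paralogues used in ratios, cell type markers and the 3 genes most like each member. Some genes that this rule selects are not reported here. Alternatives were other scalings and filters, DESeq2 1.42.0, limma 3.58.1 on log2(FPKM + 1 or 0.1), the replicate number as a block, and each library left out in turn.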

Additional observations from a re-analysis of the deposited data

How the results depend on the processing

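Cybb, Cyba, Ncf1 and Rac2 kept direction and call in all 16 alternatives, and Ncf4 in the 15 that could test it. At 10 counts or more in every sample, Ncf4, Nos2 and Arg2 could not be tested. The cause of the changes below was not tested. All genes past the threshold numbered 1813, against 901 and 921 with limma on log2(FPKM + 1) with and without a filter, and 1543 to 2012 with a library left out. Nos2 came to -0.82 on that log2(FPKM + 1) scale without a filter, short of the fold limit; in edgeR its fitted value depends on the prior count. Arg2 was -3.15 with DESeq2 and -4.38 to -2.63 with a library left out, losing its call as given above. Nitric oxide and arginine genes past the threshold numbered 4, and 2 to 4 with a library left out, the low value coming when I/R replicate 3 or I/R+Rk2 replicate 2 was left out. Of removal enzymes, 2 passed, against 1 in each of 3 limma fits and 1 to 2 with a library left out. Of transcription factors, 5 passed, against 3 in both filtered limma fits and 4 to 5 with a library left out. Besides the libraries left out above, the Odc1 fold fell under the limit with relative log expression (-0.995), upper-quartile scaling (-0.955) and DESeq2 (-0.993).

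Ratios near 0 changed sign when a library was left out. Cybb to Cyba ran from -0.18 to 0.10 (0.10 when I/R replicate 3 was left out, 0.05 for I/R+Rk2 replicate 3), Ncf4 to Ptprc from -0.29 to 0.16 (0.16 when I/R replicate 2 was left out, 0.02 for I/R+Rk2 replicate 3) and Arg2 to Ptprc from -0.75 to 0.078 (the latter when I/R+Rk2 replicate 3 was left out). Nos2 to Arg2 ran from -0.53 to 0.68, with -0.13 when I/R replicate 1 was left out and -0.53 for I/R+Rk2 replicate 3, and was -1.09 with 0.1 CPM added. Scaling by library size alone moved the median log2 fold change to -0.17.

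Livers with the same replicate number did not deviate together (correlations -0.0579 to 0.00522, beside -0.0378 to 0.0847 for livers with different numbers). With 3 livers per group this check has little power, and it cannot show whether such livers were handled together. With the replicate block, 1690 genes passed, 7 of 7 members kept their call (log2 fold change -1.76 for Cybb, -1.70 for Cyba, -3.29 for Ncf1, -3.26 for Ncf4, -1.37 for Rac2 and -3.44 for Arg2), and 1 removal enzyme passed, the Gpx1 call being lost (adjusted p = 0.116), as was that of Slc7a1 (adjusted p = 0.0552). At these depths 3 counts stand for 0.0888 to 0.184 CPM, which limits Nos2, Arg2 and Ncf4 in treated livers.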
